A study of Mus musculus with 4 samples.

Results

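The 10 genes described here, listed under the name amacrine neuropeptides and Cxcl14, encode 9 neuropeptide precursors and 1 chemokine. They are Npy, Vip, Tac1, Sst, Penk, Cck, Cartpt, Gal and Adcyap1, and the chemokine gene Cxcl14. They were chosen by name, and all 10 were present among the 16702 gene identifiers of the deposited isoform table. Together they had 14 of its 44325 isoforms. The data came from 4 single-cell libraries of the retina, all from wild-type males of the strain C57BL6/J, with no allele or agent besides. Of these, 2 had no enrichment, 1 of them from postnatal day 40 and the other with no age given. The CD73 enrichment library came from postnatal week 8 and the CD90.2 enrichment library from postnatal month 4. CD73 lies on the surface of photoreceptors, and CD90.2, also called Thy1, on that of ganglion cells and other neurons. Per the protocol, magnetic beads removed cells positive for CD73 in the former and kept cells positive for CD90.2 in the latter. Full-length cDNA was read on a nanopore instrument, so that each read could carry a whole splice pattern.

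Counts were deposited for 6 cell classes: amacrine cells, bipolar cells, cones, Müller glia, rods and retinal ganglion cells. The columns name no library, so each class is 1 sample with no replicate, and no test between classes was made. The share of each library, age and enrichment in a column is not given, and these cannot be told apart from the class. A column pools cells, so the share of cells that express a gene and its level per cell cannot be told apart either. Column totals ranged from 3509890 counts in ganglion cells to 55437340 in rods. Levels are given as CPM, the counts after scaling to a column total of 1000000. All intervals are exact or Newcombe 95% intervals and describe the error of counting reads alone, not variation between cells or libraries. More than 1 read may stem from the same molecule, in which case the intervals are too narrow. A gene at 0 could have had up to 3 counts, which is 0.0622 CPM in the amacrine column and 0.855 CPM in the ganglion column.

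Neuropeptides are made as precursors that enter the secretory pathway, are cut at pairs of basic residues by prohormone convertases and are stored in dense core vesicles. They are released alongside a fast transmitter and act through G protein-coupled receptors. Amacrine cells are the inhibitory interneurons of the inner retina, most of which use GABA or glycine, and many of their subtypes are recognised by a peptide. Ganglion cells are the output neurons of the retina, and bipolar cells carry signals from photoreceptors to both. Cxcl14 is a secreted chemokine that is not a neuropeptide.

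Of the 10 genes, 4 were highest in the amacrine column, and 7 when the ganglion column was left out. The share of all genes highest there without the ganglion column was not computed. The highest column does not decide whether a gene marks an amacrine subtype, since a column pools cells. Cartpt and Cck, highest elsewhere, had 31234 and 24277 counts in the amacrine column. Npy, Vip, Tac1 and Cxcl14 were highest in the amacrine column, Cartpt, Penk, Gal and Adcyap1 in the ganglion column, and Cck and Sst in the bipolar column. Of 16256 genes with at least 10 counts, 22.5% were highest in the amacrine column, 12.1% in the ganglion column and 15.9% in the bipolar column. None of the 10 was highest in rods, Müller glia or cones by CPM, where 23.0%, 17.9% and 8.61% of all genes were, but Sst was higher in cones than in bipolar cells when scaled by the median of ratios. The 10 genes together held 0.511% of all counts in amacrine cells, 0.203% in ganglion cells and 0.161% in bipolar cells. Their shares were 0.0247% in Müller glia, 0.0141% in rods and 0.0105% in cones. A gene was called restricted when at least 80% of its CPM, summed over the 6 columns, lay in 1 column. This was met by 5 of the 10, against 17.6% of all genes. Npy, Vip and Cxcl14 were restricted to amacrine cells (5.72% of all genes) and Gal and Adcyap1 to ganglion cells (1.43%). The median gene had 14.3% of its summed CPM in amacrine cells and 0% in ganglion cells, and the medians over the 10 genes were 25.5% and 18.0%.

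**Figure D1:**
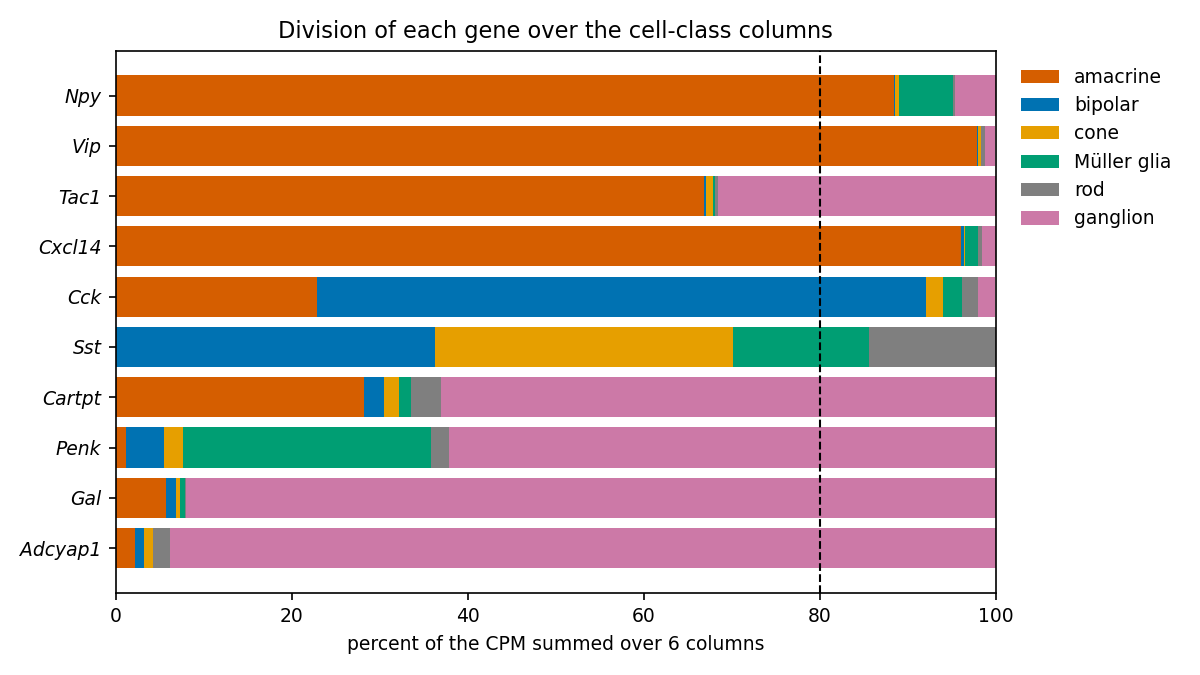
Division of each gene over the 6 cell-class columns, as a percentage of the CPM summed over the columns (horizontal axis), with 1 bar per gene and 1 colour per class. The dashed line marks 80%. The amacrine segment reached 88.4% for Npy, 97.9% for Vip and 96.0% for Cxcl14, and the ganglion segment 92.1% for Gal and 93.9% for Adcyap1.

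The column names were checked against marker genes. All 6 amacrine markers (Gad1, Gad2, Slc6a9, Tfap2a, Tfap2b and Slc32a1) were highest in the amacrine column, where they summed to 428 CPM, against 19.7 CPM in ganglion cells and 2.12 to 9.87 CPM in the other columns. All 6 ganglion cell markers were highest in the ganglion column, with 17759 CPM in sum there and 693 CPM in amacrine cells. The sums rest mainly on Tfap2b (273 CPM in amacrine cells) and Sncg (15741 CPM in ganglion cells), so levels in other columns are set beside the 6 markers singly. In ganglion cells the 6 amacrine markers ranged from 0% (Slc6a9) to 40.1% (Gad2) of their amacrine levels, with a median of 5.38%, and in Müller glia from 0% to 0.597%. The Müller glia shares rest on 10 counts or fewer per marker, and 3 of the 6 markers were at 0 there. In amacrine cells the 6 ganglion markers ranged from 1.15% (Pou4f1) to 34.8% (Thy1) of their ganglion levels, with a median of 3.02%, and in Müller glia from 0% to 9.29% (Rbpms). Of the markers of other cell types, all 5 of microglia (1510 CPM in sum) and all 3 matched ones of astrocytes (111 CPM) peaked in the column of Müller glia, and the 3 astrocyte markers were at 0 in ganglion cells.

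Parts of 3 precursors show what the models of these genes hold. In Tac1 the substance P precursor is spliced in alternative ways, and the capitals mark exon 4, of 45 nt at chr6:7557216-7557260 (GRCm38, plus strand), which the beta form holds and the gamma form lacks. In Cartpt the capitals mark the 39 nt at chr13:99900041-99900079 (minus strand) that only the long form holds. In Vip, exon 4 encodes the peptide PHI and exon 5 encodes VIP itself. All are coding sequence of GENCODE M21 transcripts, printed 5′ to 3′.
Tac1 beta form, exons 3 to 5: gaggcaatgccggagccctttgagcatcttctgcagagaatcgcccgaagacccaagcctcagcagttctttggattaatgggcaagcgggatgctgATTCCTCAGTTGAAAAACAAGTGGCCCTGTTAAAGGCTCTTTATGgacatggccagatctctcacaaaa
Tac1 gamma form, exons 3 and 4: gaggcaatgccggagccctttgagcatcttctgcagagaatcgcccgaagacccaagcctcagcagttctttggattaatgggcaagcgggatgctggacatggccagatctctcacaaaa
Tac1 beta form, exon 6: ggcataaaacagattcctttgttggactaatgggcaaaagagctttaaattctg
Cartpt long form, exon 2: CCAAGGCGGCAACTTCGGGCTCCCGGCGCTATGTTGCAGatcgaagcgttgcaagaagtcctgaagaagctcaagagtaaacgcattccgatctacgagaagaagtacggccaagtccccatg
Cartpt short form, exon 2: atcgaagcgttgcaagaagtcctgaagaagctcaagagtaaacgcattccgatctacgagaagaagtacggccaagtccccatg
Vip exon 4: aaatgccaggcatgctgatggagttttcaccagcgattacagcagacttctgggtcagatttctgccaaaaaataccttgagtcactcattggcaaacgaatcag
Vip exon 5: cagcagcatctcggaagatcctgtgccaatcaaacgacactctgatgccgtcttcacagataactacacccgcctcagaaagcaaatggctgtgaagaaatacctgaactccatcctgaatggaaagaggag

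Among the 4 genes highest in amacrine cells, Vip and Cxcl14 were the most confined to that column, Npy had a second level in Müller glia, and Tac1 had a second level in ganglion cells. Each of the 4 was at least 2.12 times as high in amacrine cells as in any other class. The plot of levels by class shows all 10 genes on 1 scale.

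**Figure D2:**
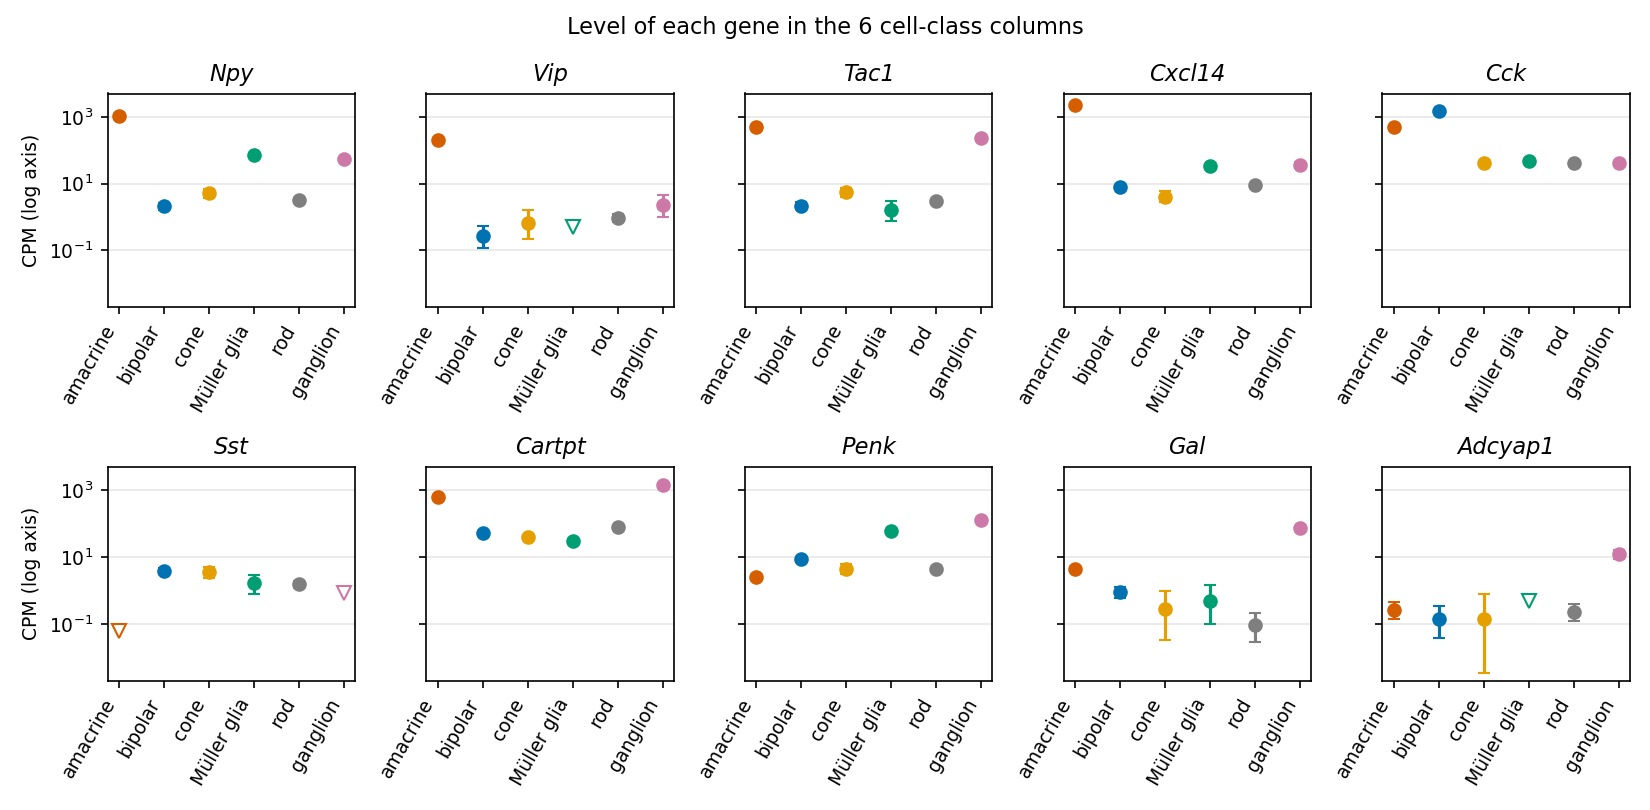
Level of each gene in the 6 cell-class columns, in CPM on a log axis, with 1 panel per gene. Points are the pooled column values, bars are exact 95% Poisson intervals for counting error, and open triangles stand at the limit of 3 counts where the count was 0. The amacrine point is the highest for Npy, Vip, Tac1 and Cxcl14, the bipolar point for Cck and Sst, and the ganglion point for the other 4.

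Npy encodes neuropeptide Y, a peptide of GABAergic amacrine subtypes, and its coding sequence starts with exon 2, printed here as the stretch that holds the signal peptide and most of the mature peptide.
Npy exon 2: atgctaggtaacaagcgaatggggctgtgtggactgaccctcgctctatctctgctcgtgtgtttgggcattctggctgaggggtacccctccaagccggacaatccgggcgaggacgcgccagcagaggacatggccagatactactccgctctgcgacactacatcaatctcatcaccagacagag
Npy reached 1035 CPM (95% interval 1026 to 1044) in amacrine cells, 71.4 in Müller glia, 53.6 in ganglion cells, 5.2 in cones, 3.32 in rods and 2.10 in bipolar cells. The amacrine level was 14.5 times that of Müller glia (13.2 to 16.0), and Müller glia were 1.33 times as high as ganglion cells (1.12 to 1.59). All neighbours in this order were separated by their counting intervals. The Müller glia level was 6.90% of the amacrine level, above the measured shares of all 6 amacrine markers. Those shares rest on 10 counts or fewer each, so not all 6 markers could be placed below Npy. In ganglion cells the Npy level was 5.17% of the amacrine one, above 3 of the 6. The part of amacrine RNA in these lower levels was not tested. Npy had 1 isoform, ENSMUST00000031843.6, a model of 4 exons and 566 nt at chr6:49822710-49829507.

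Vip encodes vasoactive intestinal peptide, found in wide-field and bistratified GABAergic amacrine cells. Its level was 198 CPM in amacrine cells, from 9549 counts. The other columns held 2.28 CPM in ganglion cells, 0.938 in rods, 0.684 in cones, 0.276 in bipolar cells and 0 in Müller glia, from 8, 52, 5, 8 and 0 counts. Amacrine cells were 86.8 times as high as ganglion cells (44.1 to 201) and at least 405 times as high as the limit in Müller glia. The 5 lower classes were not separated from their neighbours in the order. A count of 0 in Müller glia was found in 0.105% of the 1905 genes with at least as many counts as Vip. The 1 isoform, ENSMUST00000019906.5, had 7 exons and 1530 nt at chr10:5639218-5647617, and its model holds both peptide exons printed above. Whether single reads spanned both exons was not tested.

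Cxcl14 was at 2223 CPM in amacrine cells, 36.8 in ganglion cells, 34.9 in Müller glia, 8.98 in rods, 8.10 in bipolar cells and 4.11 in cones. The amacrine column stood alone, at 60.5 times the ganglion level (50.9 to 72.5). Ganglion cells and Müller glia were not separated (1.05, 0.840 to 1.32), nor were rods and bipolar cells (1.11, 0.948 to 1.30). In ganglion cells the level was 1.65% of the amacrine one, above the shares of 2 of the 6 amacrine markers. In Müller glia it was 1.57%, above the measured shares of all 6. The Müller glia shares of the markers rest on 10 counts or fewer each, so not all 6 could be placed below Cxcl14. The model, ENSMUST00000021970.10 at chr13:56288643-56296305 on the minus strand, had the 4 exons of the reference transcript and began 246 nt downstream of it.

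Tac1 encodes the precursor of substance P and neurokinin A, the tachykinins of a GABAergic amacrine subtype and of some ganglion cells. It was at 493 CPM in amacrine cells (487 to 500) and at 232 CPM in ganglion cells (217 to 249). Cones had 5.61 CPM, rods 2.98, bipolar cells 2.21 and Müller glia 1.63. Both inner columns were far above the rest: amacrine cells had 2.12 times the ganglion level (1.98 to 2.28), and ganglion cells 41.4 times that of cones (30.3 to 58.2). The ganglion level was 47.1% of the amacrine one, where the highest of the 6 amacrine markers, Gad2, was at 40.1%. With 66.8% of its summed CPM in amacrine cells, Tac1 fell short of the restriction rule.

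The Tac1 counts were divided between the gamma form, ENSMUST00000184986.1, and the beta form, ENSMUST00000185187.7. Both keep exon 6, which encodes neurokinin A, and exon 3, which encodes substance P. They differ in exon 4, whose 15 codons extend neurokinin A at its start in a longer peptide. The gamma form had 12628 of 23801 counts in amacrine cells, or 53.1% (52.4 to 53.7), and 461 of 816 in ganglion cells, or 56.5% (53.0 to 59.9). Its share was 53.1% of 64 counts in bipolar cells, 52.7% of 165 in rods, 40.0% of 10 in Müller glia and 85.4% of 41 in cones (70.8 to 94.4). Amacrine and ganglion cells were not separated, with a difference of -3.44 percentage points (-6.86 to 0.0437). Cones lay apart: the amacrine share was lower by a difference of -32.3 points (-40.1 to -18.5), from 35 of 41 cone counts. Across 1570 genes with enough counts in amacrine and ganglion cells, the share of the top isoform differed by a median of 5.23 points.

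Cck and Sst were the 2 genes highest in the bipolar column. For Cck this was a large difference between well-counted columns, and for Sst a small one among low levels.

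Cck encodes cholecystokinin, a peptide known from amacrine cells. Its level was 1528 CPM in bipolar cells and 503 CPM in amacrine cells. Müller glia had 47.4 CPM, cones 42.0, ganglion cells 41.9 and rods 41.1. Bipolar cells were 3.04 times as high as amacrine cells (2.99 to 3.09), which were 10.6 times as high as Müller glia (9.45 to 11.9), and the other 4 columns were not separated from their neighbours. The 6 bipolar markers summed to 631 CPM in bipolar cells and 5.43 CPM in amacrine cells. Cck was counted in 2 forms with the same coding start and different first exons. The form from the upstream exon, ENSMUST00000035120.5, held 98.0% of 44333 counts in bipolar cells and 97.3% of 24277 in amacrine cells. The form from the downstream exon, ENSMUST00000213106.1, whose 127 nt at chr9:121494734-121494860 are noncoding, held 2.03% (1.90 to 2.16) and 2.67% (2.47 to 2.88). The upstream share was lower in amacrine cells, with a difference of -0.641 points (-0.887 to -0.404), against a median size of 7.42 points over 3716 genes between these 2 classes.

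Sst encodes somatostatin, the peptide of sparse amacrine cells and displaced amacrine cells with long processes. In the amacrine column it had 0 counts of 48248340, and in the ganglion column 0 of 3509890. The other columns held 3.83 CPM in bipolar cells, 3.56 in cones, 1.52 in rods and 1.63 in Müller glia, from 111, 26, 84 and 10 counts. Rods were thus at least 24.4 times, and bipolar cells at least 61.5 times, the amacrine limit. Bipolar cells and cones were not separated (1.08, 0.697 to 1.72), and scaling by the median of ratios put cones above bipolar cells (0.947). Of 8529 genes with at least the 231 counts of Sst, 0.762% were at 0 in amacrine cells. These were 65 genes, of which 64 (0.75% of the 8529) were also at 0 in ganglion cells, where 22.7% of the 8529 were at 0. Whether these zeros are measured levels or come from how the table was made was not tested, so the bounds above hold only if they are measured. The Sst model was ENSMUST00000004480.4, of 2 exons at chr16:23889573-23890820.

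The genes highest in ganglion cells were Cartpt, Penk, Gal and Adcyap1. They differed in their second class, which was the amacrine column for Cartpt and Gal and Müller glia for Penk.

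Cartpt encodes the precursor of the CART peptides, which mark a type of direction-selective ganglion cell. It reached 1448 CPM in ganglion cells and 647 CPM in amacrine cells. Rods had 77.4 CPM, bipolar cells 52.7, cones 39.3 and Müller glia 30.3, and all neighbours in this order were separated. Ganglion cells were 2.24 times as high as amacrine cells (2.17 to 2.30), and amacrine cells 8.37 times as high as rods (8.10 to 8.64). The amacrine level was 44.7% of the ganglion one, where the highest of the 6 ganglion markers, Thy1, was at 34.8% and the other 5 were at 5.12% or less.

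The long form of Cartpt, ENSMUST00000022150.7, was the lesser in all 6 columns. It starts exon 2 at an upstream 3′ splice site and adds 13 codons ahead of the peptides that are cut from the precursor, which both forms share. Its share was 22.9% of 31234 counts in amacrine cells (22.5 to 23.4) and 19.9% of 5082 in ganglion cells (18.8 to 21). It was 25.6% in rods, 23.4% in bipolar cells, 22.3% in cones and 29.0% of 186 counts in Müller glia (22.6 to 36.1). The short form, ENSMUST00000224142.1, was lower in amacrine than in ganglion cells, with a difference of -3.06 points (-4.23 to -1.85). The median size over 1570 genes between these classes was larger, at 5.23 points. Between rods and ganglion cells the difference for the short form was -5.72 points (-7.42 to -4.01), and no median over all genes was computed. The short form thus ranged from 71.0% in Müller glia to 80.1% in ganglion cells.

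Penk encodes proenkephalin, the precursor of the enkephalins. Its level was 130 CPM in ganglion cells, 59.0 in Müller glia, 9.07 in bipolar cells, 4.52 in cones, 4.4 in rods and 2.51 in amacrine cells. The amacrine column was the lowest of the 6, at 1.92% of the ganglion level. Ganglion cells were 2.21 times as high as Müller glia (1.92 to 2.54), and cones and rods were not separated (1.03, 0.691 to 1.48). The Müller glia level was 45.2% of the ganglion one, where the 6 ganglion markers reached at most 9.29%. Markers of microglia and astrocytes were also highest in the Müller glia column, and their part in the Penk level was not tested. The 1 isoform was ENSMUST00000133567.1, of 3 exons at chr4:4133531-4138819.

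Gal encodes galanin, and Adcyap1 encodes PACAP, the peptide of the light-sensitive ganglion cells that signal to the brain's clock. Gal was at 72.7 CPM in ganglion cells, 4.52 in amacrine cells, 0.896 in bipolar cells, 0.0902 in rods, 0.274 in cones and 0.489 in Müller glia. Ganglion cells were 16.1 times as high as amacrine cells (13.4 to 19.4), where the level was 6.22% of the ganglion one. Amacrine cells were 5.04 times as high as bipolar cells (3.35 to 7.89). Bipolar cells, Müller glia, cones and rods held between 2 and 26 counts, and neighbours among these 4 were not separated.

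Adcyap1 had 73 counts in all. Its level was 12 CPM in ganglion cells, from 42 counts, and 0.269 in amacrine cells, 0.234 in rods, 0.138 in bipolar cells, 0.137 in cones and 0 in Müller glia. Ganglion cells were 44.4 times as high as amacrine cells (lower bound 23.4), and the lower columns were not separated. Its amacrine level was 2.25% of the ganglion one, within the range of the 6 ganglion markers and above 3 of them. Of its 2 forms, ENSMUST00000064775.7 begins with a first exon at chr17:93199393-93199622. The other has no Ensembl name and begins downstream, at chr17:93199935-93200120, with 78 nt that run into the exon with the start codon, and it ends 1314 nt earlier. That form had 25 of 42 counts in ganglion cells, or 59.5% (43.3 to 74.4), 4 of 13 in amacrine cells (30.8%) and 1 of 13 in rods (7.69%). All its introns are part of reference transcripts of the gene, so that only its start and end set it apart from them.

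**Figure D3:**
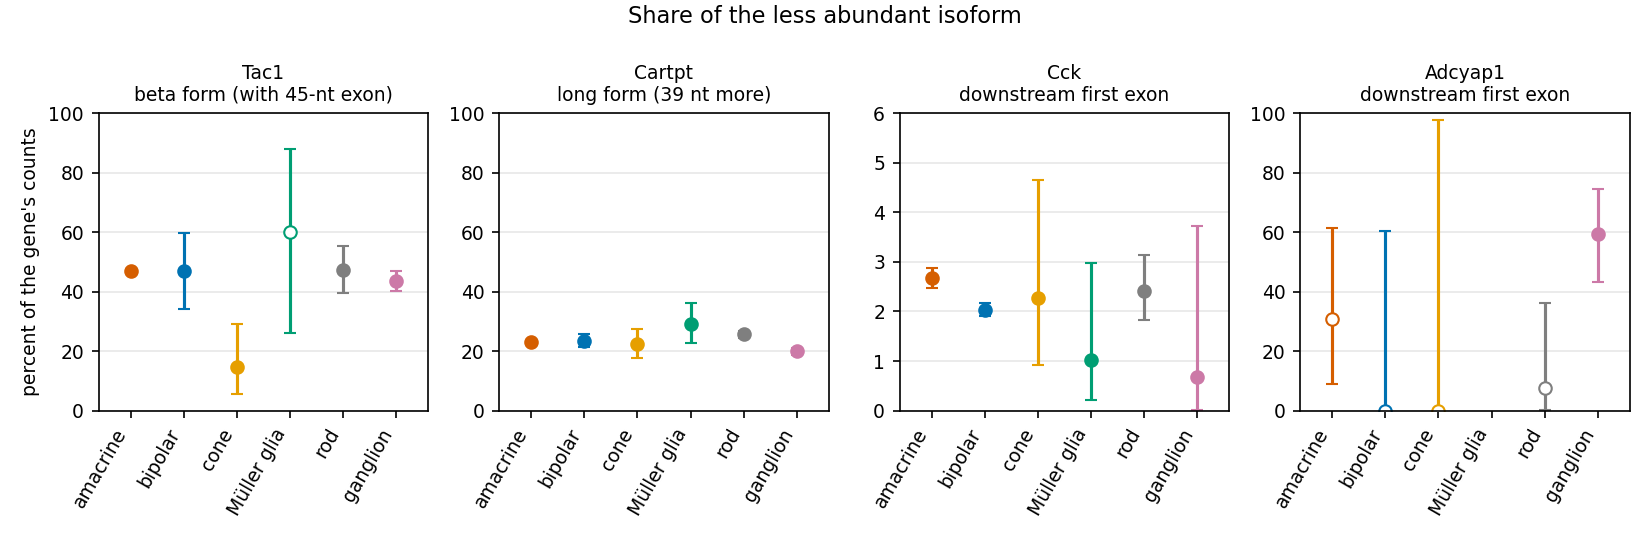
Share of the form that was the lesser over all columns, as a percentage of the gene's counts in each class, for the 4 genes with 2 forms; the Cck axis ends at 6%. Bars are exact 95% binomial intervals, and open points rest on fewer than 20 counts. The long form of Cartpt stays between 19.9% and 29.0%, the downstream form of Cck at or below 2.67%, and the beta form of Tac1 is lowest in cones, at 14.6%.

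Of the 14 isoforms, 13 had an Ensembl transcript name, and 1, from Adcyap1, had none, against 63.5% of all 44325 isoforms. All 13 had the introns of that transcript, and all 37 splice junctions of the 14 models were in GENCODE M21. A name may itself have been given for matching introns, so these matches are not separate support. The share of such junctions over all models was not computed. The models had 2 to 7 exons and lengths from 520 to 2195 nt. Of the 28 reference transcripts of these genes, the alpha form of Tac1, which lacks exon 6, was not among the 14. Of the 7 genes with at least 1000 counts, 4 had 1 isoform, as did 31.9% of the 5226 Ensembl genes at that depth. Of the 14 isoforms, 6 were restricted to 1 class (27.0% of all isoforms with at least 10 counts), 3 to amacrine cells (10.3%) and 3 to ganglion cells (2.01%).

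A dominant isoform switch was called where the most abundant isoform differed between 2 classes with at least 20 counts each and a share moved by at least 50 percentage points. Tac1, Cartpt and Cck could be compared, and 0 of these 3 switched, where 25% of 7317 genes did. In Tac1 the gamma form led in 5 columns and the beta form in Müller glia, with 6 of 10 counts. Adcyap1 lay outside the rule because only the ganglion column had 20 counts.

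**Figure D4:**
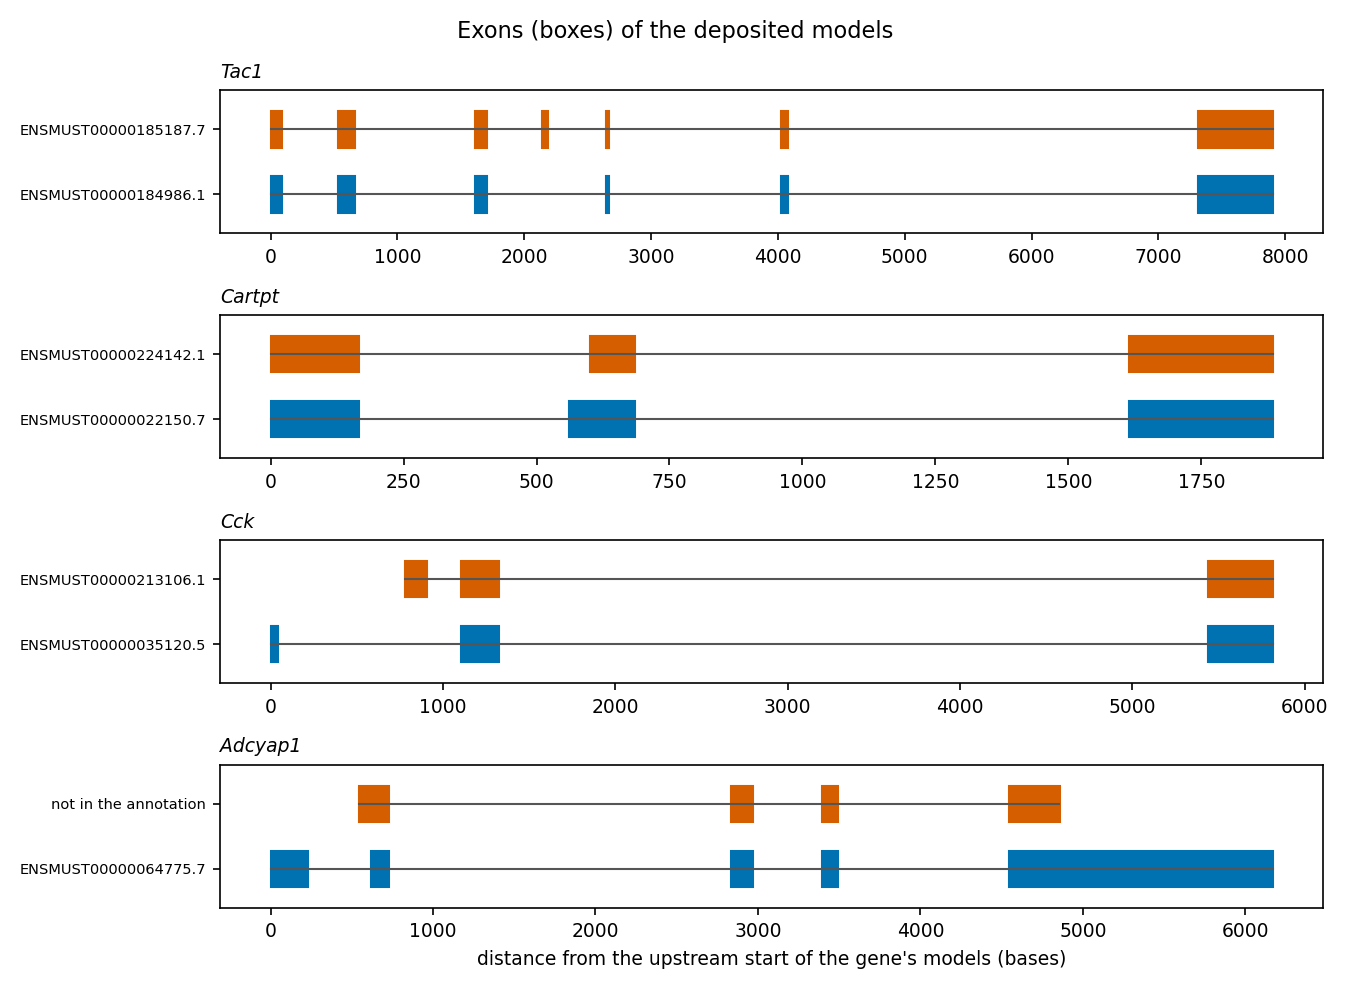
Exons (boxes) and introns (lines) of the deposited models of the 4 genes with 2 forms, drawn from the upstream start, with the distance in bases on the horizontal axis. Tac1 differs by the 45-nt exon, Cartpt by 39 nt at the start of exon 2, Cck by its first exon, and Adcyap1 by its first exon and by 1314 nt at its end.

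Several of these genes are known targets of the cyclic AMP pathway through the cyclic AMP response element, of which the Sst promoter is the classical example. RefSeq promoter windows on GRCm38.p6, of 300 bases that span each start, were matched for 9 of the genes. The whole element, TGACGTCA, which reads the same on both strands, was in the windows of Sst and Cartpt, and in 1.79% of all 32851 windows. They are printed with the element in capitals, on the minus strand, because these 2 genes hold it but differ in class.
Sst, chr16:23890865-23890912: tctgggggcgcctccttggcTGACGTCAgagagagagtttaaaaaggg
Cartpt, chr13:99900768-99900815: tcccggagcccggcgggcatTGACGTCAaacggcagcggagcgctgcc
The elements begin 48 and 112 bases before the start. Sst was listed at 0 in amacrine and ganglion cells, the 2 classes where Cartpt was highest. The shorter TGACG, on either strand and including the whole elements, was in the windows of 7 of the 9 genes, all but Npy and Cxcl14, and in 20.8% of all windows. TATAAA was in 2 of the 9 (Vip and Adcyap1) and 13.6% of all. GCCNNNGGC, a pattern bound by the amacrine factors of the TFAP2 family, was in 0 of the 9 and 16.6% of all. Such matches describe letters and not binding.

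The genes with the most similar division over the 6 columns were found among 9867 genes with at least 100 counts, as the overlap of the 2 divisions (100% when equal). The overlap compares 6 points that share libraries and depth. For Vip they included Gad1, the GABA-synthesising enzyme, at 99%, and Gtf2a1l at 98.8%. For Cxcl14 they were Stc1 (98.4%), a secreted glycoprotein, and the synaptic proteins C1ql2 (98.3%) and C1ql1 (98.2%). Npy was closest to Zap70 (96.7%), and Rai14 (95.9%) was also among its 3 closest. Tac1 was closest to Ak5 (98.5%). Cck was closest to Ankrd6 (96.5%), Dgki (96.0%) and the potassium channel gene Kcna5 (95.3%). Cartpt was closest to Matk (96.6%), Erf (96.0%) and Chst1 (95.9%), and Gal to Clvs2 (97.9%), the neurofilament gene Nefl (97.4%) and Gpr26 (97.2%). Penk was closest to Cyp4v3 (94.0%), S100a10 (91.9%) and Lgals1 (91.5%), and Sst to Zfp799 (94.0%), Vwa8 (94.0%) and Cblb (93.2%).

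Of 15 listed genes of peptide processing and dense core vesicles, all were present, and they were not centred on amacrine cells. The highest column was amacrine for 5, bipolar for 5, cones for 3 and ganglion for 2, and the median share of summed CPM in amacrine cells was 14.7%, where that of all genes was 14.3%. Pcsk1n, which encodes an inhibitor of prohormone convertase, was at 4438 CPM in amacrine cells and 4845 CPM in ganglion cells, above 237 to 1588 CPM in the other columns. Scg5, the chaperone of the second convertase, was at 416 CPM in amacrine cells and 919 CPM in cones. Cpe, the carboxypeptidase that trims the cut peptides, was at 112 CPM in amacrine cells and 833 CPM in cones. Those highest in amacrine cells had few counts. The convertase gene Pcsk1 was at 1.35 CPM there and had 0 counts elsewhere, and Vgf was at 0.269 CPM. Pam, which amidates peptides, was at 1.68 CPM there and 1.52 in bipolar cells, from 81 and 44 counts. Ptprn was at 4.31 CPM, and at 3.42 in both cones and ganglion cells, from 208, 25 and 12 counts. Cadps2 was at 0.643 CPM, and at 0.483 in bipolar cells, from 31 and 14 counts. The highest column of Pam, Ptprn and Cadps2 is therefore not settled.

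Of 22 listed receptors for these peptides, 10 were matched, and they were counted at low levels. They summed to 6.03 CPM in amacrine cells and 43.3 CPM in bipolar cells, and 4 were highest in amacrine cells. These were the somatostatin receptor gene Sstr2 (1.97 CPM there, with 95 of its 96 counts), the PACAP receptor gene Adcyap1r1 (0.373), the substance P receptor gene Tacr1 (0.332) and the opioid receptor gene Oprm1 (0.207). Vipr2, a receptor for VIP and PACAP, had 42.2 CPM in bipolar cells, from 1223 counts, and 0.684 CPM in amacrine cells. Galr2, a galanin receptor gene, was at 5.13 CPM in ganglion cells and 2.38 CPM in amacrine cells. The other receptors, each with 67 counts or fewer, were highest in bipolar cells (Npy1r and Npy5r), cones (Cckbr) and Müller glia (Tacr2), and are named here after their values were seen. Of the 10 receptors, Tacr1 and Galr2 shared the highest column with their peptide genes Tac1 and Gal, and the other 8 did not. For Tacr1 this rests on 16 counts in amacrine cells and 9 in bipolar cells (0.332 and 0.31 CPM), too few to order these columns. How often other pairs of genes share a highest column was not computed, so these matches are not read as a result.

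Of 12 other neuropeptide genes listed, 5 were matched. Tac2, which encodes neurokinin B, was at 136 CPM in amacrine cells and 7.69 in ganglion cells, with 91.0% of its summed CPM in amacrine cells. Crh, which encodes corticotropin-releasing hormone, had 48 of 50 counts in amacrine cells. Calca, the gene of calcitonin gene-related peptide, was at 31.1 CPM in Müller glia and at 4.81 CPM in amacrine cells. Pdyn, the prodynorphin gene, was at 6.85 and 2.88 CPM in these columns, so that it shared with Penk a level in Müller glia above that in amacrine cells.

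**Figure D5:**
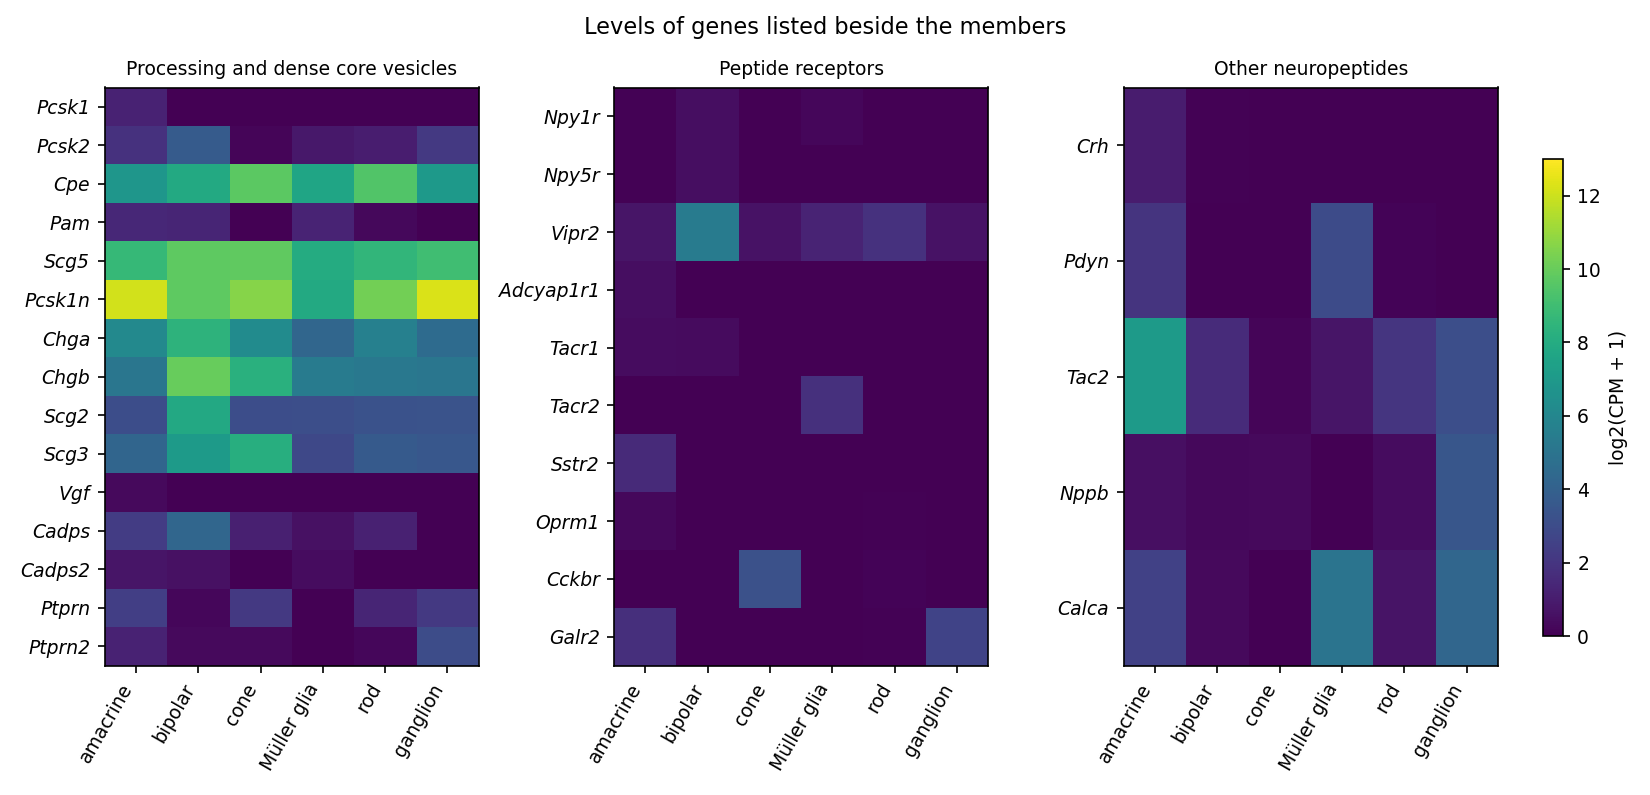
Levels of the matched genes of the processing, receptor and other neuropeptide lists in the 6 columns, as log2(CPM + 1) by colour; each row is 1 gene, read across the columns. Pcsk1n is bright in amacrine and ganglion cells, Vipr2 in bipolar cells and Tac2 in amacrine cells.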

How the data were processed

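Nanopore long reads of single-cell cDNA from 4 retinal libraries were counted per isoform and cell class by the authors. The deposited table holds whole-number counts in 6 columns that name no library, and 0 columns were left unused. Genome build mm10 is named per the submitters' processing notes, and the deposited annotation of transcript models names FLAIR in its source field. The counting tool, the filters, the calling and typing of cells, the treatment of doublets and any collapsing of reads to molecules are not given in the sources used here.

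CPM values were computed from these counts and the column totals. Shares carry Clopper-Pearson, folds exact conditional and differences of shares Newcombe intervals (Python 3.11.15, scipy 1.17.1). The planned comparison had no replicates, so a class is 1 sample and no test was made. Models were compared with GENCODE M21, and sequences were read from its transcripts and from RefSeq promoter windows. The member genes, lists and rules were chosen with earlier results of these data known. All 10 genes were named, each isoform with at least 5% of a gene's counts in a class of at least 20 counts or at least 100 counts, the 3 most similar genes of each gene, some of which are not reported here, and from each list the 3 highest in amacrine cells with those highest there. Alternatives were scaling by the trimmed mean of M-values or the median of ratios, other thresholds and minimum counts, and columns left out. The rules were tested on simulated data.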

Additional observations from a re-analysis of the deposited data

How the results depend on the processing

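Of the 26 alternatives for counts of genes or isoforms, 19 left the count within 1.5 times its value and 7 moved it. Counts made with a column left out have no share over all genes beside them. The 4 genes highest in amacrine cells became 7 without the ganglion column, and without the bipolar column they were 5. The 5 restricted genes were 6 without the Müller glia column; these 2 alternatives were chosen after seeing the data. The restricted genes became 2 at 95% of summed CPM and 9 at 50%, and the 6 restricted isoforms became 3 at 95%. With at least 10 counts per class, 1 gene switched, Adcyap1 between rods and ganglion cells. The 1 isoform without an Ensembl name dropped to 0 at a minimum of 100 counts, and to 0 where parts of reference transcripts counted as annotated. The alternatives shifted the log2 scaling factor of a column, by which its counts are divided, by -0.25 to 0.20. Of 20 rescaled folds, 11 stayed within their counting intervals, 8 moved with the same direction and 1 reversed: Sst in bipolar cells over cones was 0.947 by the median of ratios. Under that scaling Npy in amacrine cells over Müller glia was 10.6. No paired analysis was possible because a column holds 1 class from unnamed libraries, and no library could be left out. Adcyap1, with 73 counts, and Sst, with 231, were limited by depth.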

Other observations

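Of 6 other chemokine genes listed beside Cxcl14, 5 were matched. With so few genes, no result is read from 0 of these 5 being restricted to amacrine cells, against 5.72% of all genes. Ccl25 was highest there at 38.2 CPM, with 15.1 to 25.2 CPM in the other columns, and Cx3cl1, the ligand of the microglial receptor, was at 10.9 CPM in amacrine cells and 8.26 CPM in ganglion cells. Cxcl16 was at 27.1 CPM in Müller glia and 0.829 CPM in amacrine cells.

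Genes that define other amacrine subtypes were divided over columns. Th, the gene of tyrosine hydroxylase and a marker of dopaminergic amacrine cells, had 268 of its 269 counts in amacrine cells, or 5.55 CPM, whereas Ddc of the same list was at 2.28 CPM in Müller glia and 0.0207 CPM in amacrine cells. Chat, a marker of starburst amacrine cells, had all its 26 counts in amacrine cells, or 0.539 CPM. Of the other 2 matched starburst markers, Megf10 was highest in Müller glia, at 5.05 CPM there and 0.477 in amacrine cells. Slc18a3 was at 0.489 and 0.435 CPM in these columns, from 3 and 21 counts, too few to order them. Of the matched glycinergic markers, Slc6a9 was highest in amacrine cells (14.3 CPM), and Ebf3 in ganglion cells (3.42 CPM, against 0.435 in amacrine cells).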
